A study of Mus musculus with 8 samples.

Results

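The PI3K, AKT, mTOR and AMPK pathway was followed through 39 genes chosen by name, out of 46040 genes in the counts table. They are the insulin receptor and its substrates, the subunits of PI3K, the kinases PDK1 and AKT, the GSK3 kinases and FOXO factors, the TSC complex with RHEB, the subunits of the mTOR complexes, the substrates of mTORC1, the subunits of AMPK, and the stress-induced genes *Ddit4*, *Sesn1* and *Sesn2*. Every row carrying one of these gene names was taken, which gave 40 rows, because *Rps6kb2* has a second row. That row (ENSMUSG00000097721) is at 0 in all 8 libraries and was left out. All 39 members were among the 13542 genes that passed the filter on low values, a CPM (the count scaled to the size of its library) of 1 or more in 2 or more libraries.

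The libraries are RNA of left ventricles of 8 male C57BL/6 mice, 5 to 7 months old, on day 14 of an angII infusion of 0.1 mg/kg/h from subcutaneous minipumps. AngII raises blood pressure and causes left ventricular hypertrophy, and all 8 mice received it, so the comparison is between genotypes under angII and not with an unloaded heart. VEGFR-1 TK-/- mice are homozygous for a germline deletion in *Flt1*, which encodes VEGFR-1, so that the receptor lacks its intracellular tyrosine kinase domain in every cell type, and the controls were their littermates. In the study mortality under angII was higher in VEGFR-1 TK-/- mice than in controls, and the tissue came from mice that survived. The labels contradict each other: the genotype tag and the library name put each library in one genotype and the sample title in the other. Libraries were grouped here by library name and are called control-tagged (n = 4) and TK-/--tagged (n = 4), the latter for VEGFR-1 TK-/-. Each log2 fold change is TK-/--tagged minus control-tagged, and every sign turns if the titles are right.

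Insulin and related growth factors act through receptor tyrosine kinases and the IRS adaptors on PI3K, whose lipid product brings PDK1 and AKT together at the membrane. AKT phosphorylates GSK3, the FOXO factors and TSC2, and inhibition of the TSC complex leaves RHEB bound to GTP and able to activate mTORC1, which drives protein synthesis through the S6 kinases and the 4E-BP proteins. AMPK senses a low energy charge and restrains mTORC1, as do the proteins of *Ddit4* and the sestrins. In the heart the PI3K and AKT branch is known for physiological growth and AMPK for fuel supply under stress. The pathway is switched mainly by phosphorylation, which counts of RNA do not measure.

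Counts on genes totalled 12349639 to 16239670 in the control-tagged and 11449137 to 13505888 in the TK-/--tagged libraries, and single members had between 31 and 7156 counts in a library. Values are given below as normalized CPM, for which the library size is adjusted by the TMM factor. *Flt1* was at 67.4, 68.3, 56.8 and 84.2 normalized CPM in the control-tagged libraries 1 to 4 and at 143, 149, 169 and 168 in the TK-/--tagged libraries, which is 1.19 on the log2 scale (SE 0.12, edgeR quasi-likelihood test, FDR = 0.00808). The count covers the whole gene and not the deleted part alone, so it does not show which label is right.

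No member was called as changed. The call needed an FDR (Benjamini-Hochberg over all genes tested) under 0.1 and at least a 1.5-fold difference, and 0 of the 39 members passed it by the quasi-likelihood test of edgeR, against a background of 0.00738% of all genes tested, which is *Flt1* alone. The likelihood ratio test of edgeR called 0 members (background 0.391%) and DESeq2 called 0 (background 0.293%). An unadjusted p under 0.05 was reached by 1 member, *Pik3cb*, which is 2.56% of the members against 8.96% of all genes tested. The count was 1 by the likelihood ratio test (background 9.14%) and 2 by DESeq2 (background 8.67%), where *Rheb* joined *Pik3cb*. The lowest FDR of any member was 0.534 by the quasi-likelihood test, 0.529 by the likelihood ratio test and 0.519 by DESeq2. By sign, 18 members were higher and 21 lower in TK-/--tagged hearts. The share of all genes tested with p under 0.05 was 5.64% for lower values, as for *Pik3cb*, and 3.32% for higher ones.

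The members' fold changes lay close to 0. Their log2 fold changes ran from -0.33 (*Ddit4*) to 0.25 (*Prkag1*), and the median size without sign was 0.11, against 0.13 over all genes tested. The 95% interval of the fold change stayed inside 1.5-fold in either direction for 35 of the 39 members (89.7%), which held for 64.8% of all genes tested. The 4 members whose interval reached past 1.5-fold were *Irs2*, *Ddit4*, *Pik3cd* and *Sesn2*. For the 35 members, a difference of 1.5-fold or more in either direction lay outside the interval at this depth and spread, while smaller differences could lie within it. Each interval covers 1 gene and is not adjusted for the number of genes. The tissue was sequenced in bulk, so for any of these genes fewer cells of a type and less RNA per cell cannot be told apart.

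**Figure D1:**
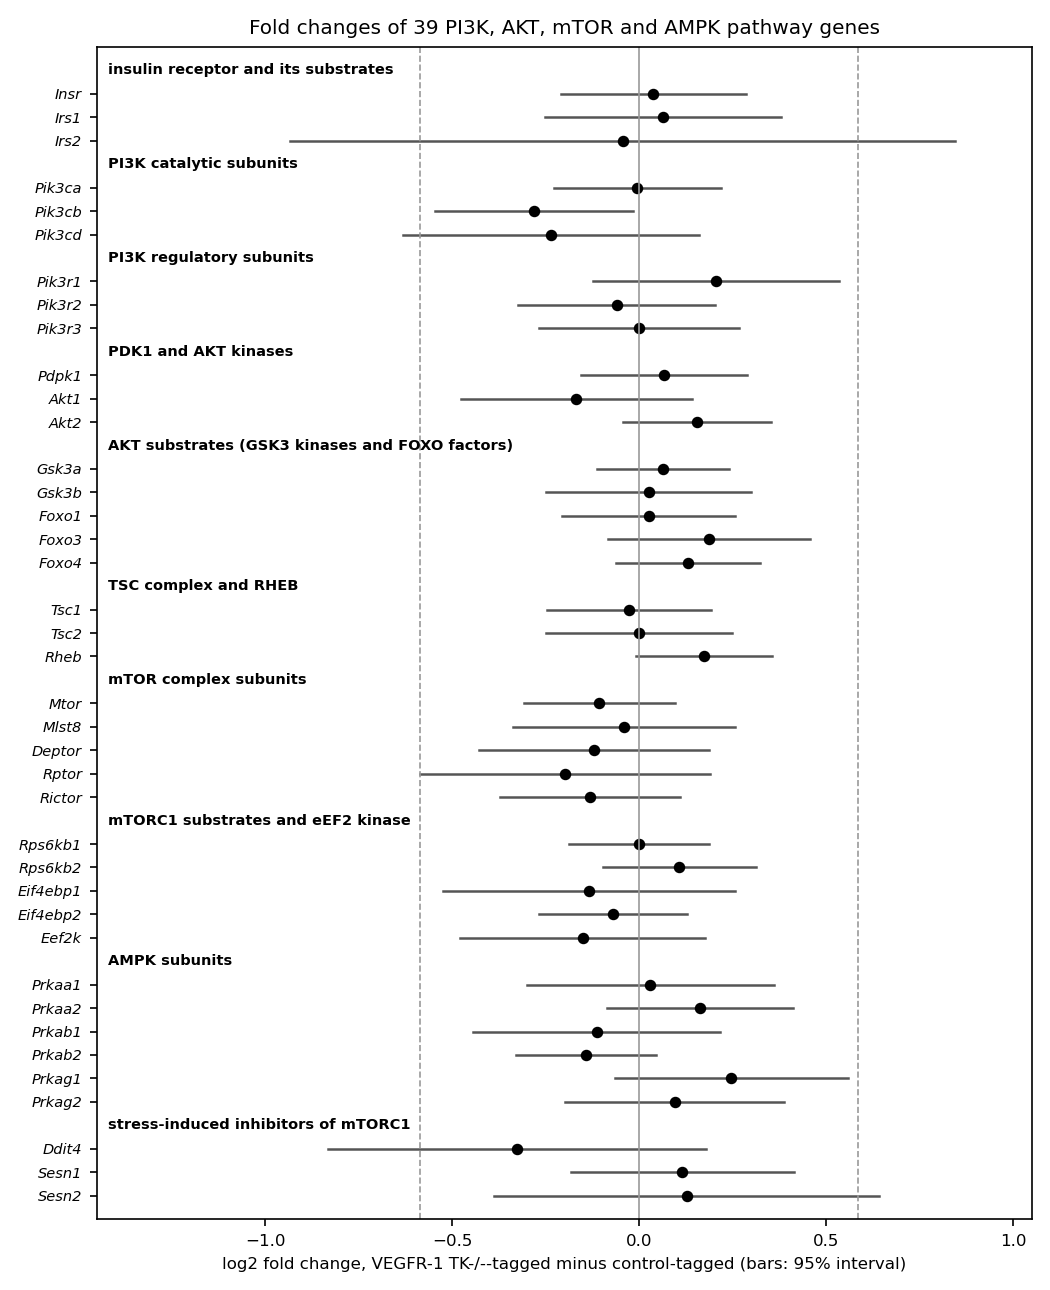
Log2 fold change of each of the 39 members, TK-/--tagged minus control-tagged (points), with its 95% interval (bars) from the edgeR quasi-likelihood fit over 4 and 4 libraries, grouped by role; dashed lines mark 1.5-fold. Only the interval of *Pik3cb* lies wholly on one side of 0, and the intervals of *Irs2*, *Ddit4*, *Pik3cd* and *Sesn2* cross a dashed line.

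The members also varied little between single hearts. The highest library was less than 2-fold above the lowest for 37 of the 39 members, with a median ratio of 1.48 over the members and 1.58 over all genes tested. The exceptions were *Irs2*, at 3.68-fold, and *Ddit4*, at 2.52-fold. *Rps6kb1*, the gene of an S6 kinase, was the steadiest member at 1.14-fold, between 36.0 and 41.1 normalized CPM.

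The promoters of 4 members are shown because their RNA stood apart in these libraries: *Pik3cb* had the lowest p, *Rheb* was the member whose groups did not overlap, and *Irs2* and *Ddit4* varied most between hearts. Each run is 250 bases before to 50 bases after the RefSeq start (GRCm38.p6), 5′ to 3′ on the gene's own strand, which is the minus strand for all 4. Capitals mark matches, on either strand, to the E-box CACGTG (bound by basic helix-loop-helix factors) and the GC box GGGCGG (bound by SP factors). The windows are chr5:24842312-24842611 for *Rheb*, chr9:99140162-99140461 for *Pik3cb*, chr8:11008880-11009179 for *Irs2* and chr10:59951721-59952020 for *Ddit4*.
Rheb: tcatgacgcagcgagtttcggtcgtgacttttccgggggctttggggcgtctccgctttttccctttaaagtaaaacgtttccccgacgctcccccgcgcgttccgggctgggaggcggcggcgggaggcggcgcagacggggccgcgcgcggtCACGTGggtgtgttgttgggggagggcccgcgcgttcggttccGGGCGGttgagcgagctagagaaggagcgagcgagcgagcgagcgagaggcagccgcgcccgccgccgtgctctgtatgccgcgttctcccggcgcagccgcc
Pik3cb: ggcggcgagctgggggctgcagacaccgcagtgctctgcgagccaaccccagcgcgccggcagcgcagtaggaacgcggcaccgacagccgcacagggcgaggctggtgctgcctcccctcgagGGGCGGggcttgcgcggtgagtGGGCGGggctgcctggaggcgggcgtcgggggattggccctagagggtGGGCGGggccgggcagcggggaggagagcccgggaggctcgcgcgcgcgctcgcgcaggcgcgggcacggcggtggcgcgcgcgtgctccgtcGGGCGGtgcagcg
Irs2: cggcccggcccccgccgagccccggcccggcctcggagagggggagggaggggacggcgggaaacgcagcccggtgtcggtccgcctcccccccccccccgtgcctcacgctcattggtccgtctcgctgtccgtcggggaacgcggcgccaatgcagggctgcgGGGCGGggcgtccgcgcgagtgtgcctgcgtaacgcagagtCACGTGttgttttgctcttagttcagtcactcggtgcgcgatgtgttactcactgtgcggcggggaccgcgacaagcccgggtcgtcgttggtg
Ddit4: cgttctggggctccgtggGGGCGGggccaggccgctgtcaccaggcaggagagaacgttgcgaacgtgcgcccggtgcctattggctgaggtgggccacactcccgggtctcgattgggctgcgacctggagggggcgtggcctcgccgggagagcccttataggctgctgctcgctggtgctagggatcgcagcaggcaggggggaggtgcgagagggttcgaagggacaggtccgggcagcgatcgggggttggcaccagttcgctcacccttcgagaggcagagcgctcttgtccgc

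The E-box stood in the windows of *Rheb*, *Irs2*, *Irs1* and *Eef2k*, 4 of the 34 members with a promoter in the RefSeq table, and in 7.15% of the 32851 promoters in it. The GC box stood in 27 of the 34 members, with 4 copies in the window of *Pik3cb*, and in 35.7% of all promoters. GTAAACA, the core that FOXO factors bind, was found in *Akt1* and *Sesn1* (3.65% of all promoters), TATAAA in *Gsk3b* and *Pik3r1* (13.6%), and the cAMP response element TGACGTCA in 0 of the 34 (1.79%). The *Rheb* window holds 1 E-box, 1 GC box and 70% G and C bases. Members were counted per gene, with a match in any promoter listed for it, and the background per promoter, so these shares are not in like units. The motif counts are matches of letters and do not show that a factor binds.

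Levels between genes are given as normalized CPM per kilobase of merged exons. On this scale 25 of the 39 members lay above the median of all genes tested, and 6 reached the 90th percentile. *Akt1* was the highest at 94.3 (73.8 to 117 over the libraries), followed by *Ddit4* at 84.3 (52.1 to 131), whose range overlapped that of *Akt1*. *Prkag1* followed at 62.6, *Eif4ebp1* at 44.6, *Sesn1* at 38.6 and *Gsk3a* at 36.3, and the ranges of these neighbours overlapped as well. The lowest were *Rictor* at 0.835 (0.769 to 0.981), which marks mTORC2, and *Irs2* at 0.988 (0.424 to 1.56), whose ranges overlapped too. *Mtor* itself was at 7.30 (6.55 to 8.17), the 64.0 percentile.

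**Figure D2:**
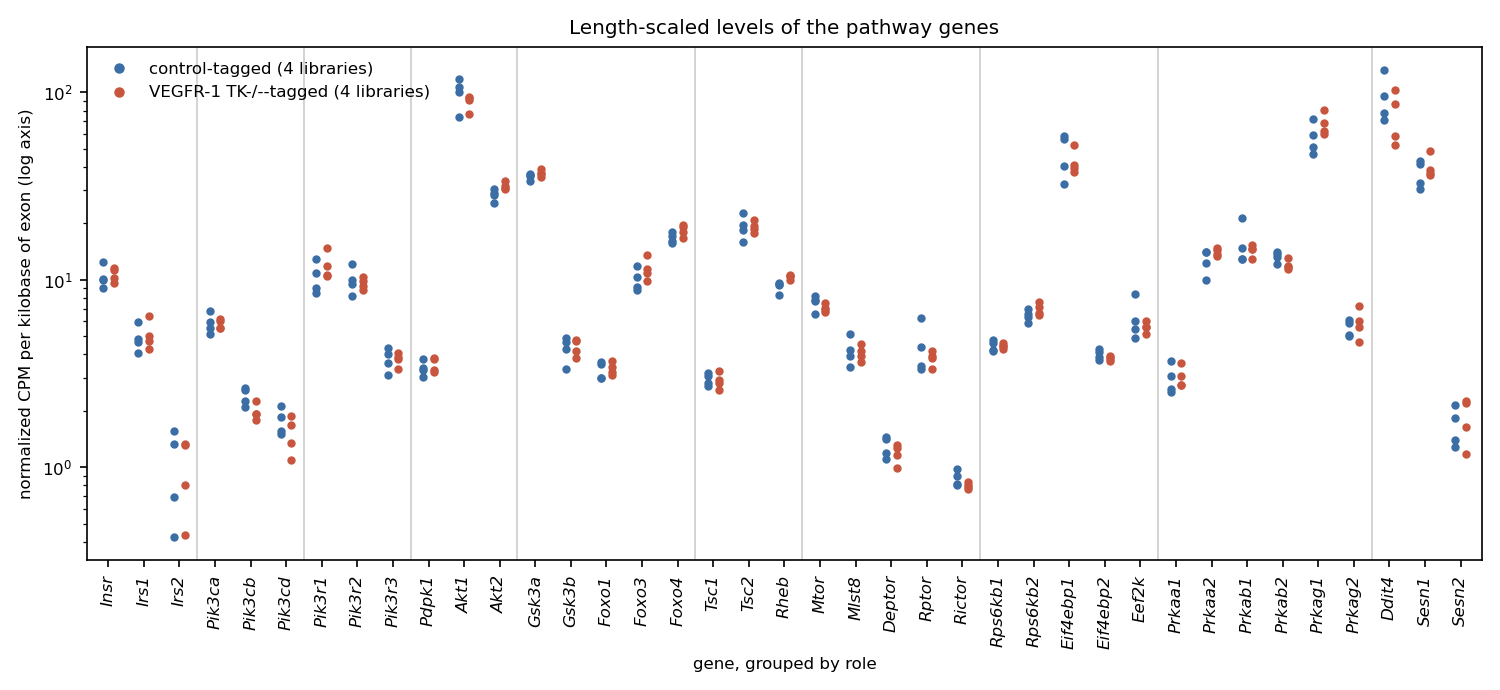
Normalized CPM per kilobase of merged exons on a log axis for each member in each of the 4 control-tagged (blue) and 4 TK-/--tagged (red) libraries, with vertical lines between roles. Levels span from 0.424 in the lowest library of *Irs2* to 131 in the highest of *Ddit4*, and the 2 colours overlap in every member except *Rheb*.

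At the head of the pathway, the insulin receptor *Insr* averaged 143 ± 20.0 normalized CPM (SD, n = 4) in control-tagged and 147 ± 12.9 (SD, n = 4) in TK-/--tagged hearts, with a log2 fold change of 0.04 (95% interval -0.21 to 0.29). The adaptor *Irs1* had a log2 fold change of 0.06 (95% interval -0.25 to 0.38). Per kilobase, *Irs1* made up 83.5% of the RNA of the pair *Irs1* and *Irs2* (74.9% to 93.7% over the libraries). *Irs1* shares 2822 exon bases with *Gm9747* on the opposite strand, and whether the counting used strand is not given in the sources used here.

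*Irs2*, the adaptor whose RNA is known to respond to fasting and to FOXO factors, was the most variable member. It was at 9.87, 2.68, 8.46 and 4.39 normalized CPM in the control-tagged libraries 1 to 4 and at 5.11, 2.75, 8.36 and 8.36 in the TK-/--tagged libraries. The low values came from library 2 of each group, and the groups overlapped over nearly the whole range. Its log2 fold change was -0.04 with a 95% interval of -0.93 to 0.84, which holds differences of 1.5-fold in both directions.

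The class IA catalytic subunits of PI3K were all lower by sign. *Pik3cb*, which encodes the beta subunit (chromosome 9, 99036654 to 99140621, GRCm38), was at 15.03, 18.99, 16.3 and 18.5 normalized CPM in the control-tagged libraries and at 13.9, 16.1, 12.9 and 13.8 in the TK-/--tagged libraries. TK-/--tagged library 2 lay above control-tagged library 1, so the groups overlapped, and the other TK-/--tagged libraries lay below every control-tagged one. Its log2 fold change was -0.28 (SE 0.12, 95% interval -0.54 to -0.02, edgeR p = 0.0386, FDR = 0.534), and the exact 2-sided permutation test over the 70 ways to divide 8 libraries into 4 and 4 gave p = 0.0571, where the smallest possible p is 0.0286. Its unadjusted p was not under 0.05 without control-tagged library 2 or 4, without TK-/--tagged library 1, 3 or 4, or with total counts in place of TMM.

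*Pik3cd*, the delta subunit known mainly from leukocytes, was at 11.6, 13.3, 9.47 and 9.74 normalized CPM in the control-tagged libraries and at 11.7, 10.5, 6.87 and 8.44 in the TK-/--tagged libraries. The groups overlapped, with TK-/--tagged library 3 the lowest of the 8. Its log2 fold change was -0.24 (SE 0.18, 95% interval -0.63 to 0.16, edgeR p = 0.216, exact permutation p = 0.286), and it ran from -0.36 without TK-/--tagged library 1 to -0.11 without library 3 of that group. The summed level of 10 leukocyte markers was also lowest in TK-/--tagged library 3, at 609 normalized CPM (range over the libraries 609 to 993), and its part in the values of *Pik3cd* was not tested.

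*Pik3ca*, the alpha subunit, had a log2 fold change of -0.0047 (95% interval -0.23 to 0.22). Per kilobase it made up 60.6% of the RNA of the 3 catalytic subunits, with *Pik3cb* at 22.6% and *Pik3cd* at 16.8%. The share of *Pik3cb* was 23.1% to 24.6% in the control-tagged and 19.4% to 22.5% in the TK-/--tagged libraries, which do not overlap. It was 1 of 21 such shares within families, and a description of the same counts that gave *Pik3cb* the lowest p.

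Among the regulatory subunits, which hold and stabilize the catalytic ones, *Pik3r1* (chromosome 13, 101680563 to 101768217) was at 91.5, 109, 85.5 and 130 normalized CPM in the control-tagged libraries and at 106, 149, 119 and 106 in the TK-/--tagged libraries. Control-tagged library 4 and TK-/--tagged library 2 stood highest in their groups, and the groups overlapped. This gave a log2 fold change of 0.21 (SE 0.15, 95% interval -0.12 to 0.53, edgeR p = 0.197, exact permutation p = 0.286). For *Pik3r1* it was 0.08 without TK-/--tagged library 2 and 0.33 without control-tagged library 4. *Pik3r2* and *Pik3r3* had log2 fold changes of -0.06 and -0.00023. Per kilobase *Pik3r1* held 44.9% of the RNA of the 3 regulatory genes, *Pik3r2* 39.7% and *Pik3r3* 15.4%. *Pik3r3* shares 1289 exon bases with *Gm49337* on the same strand, so its count may be split between them.

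*Akt1*, the most abundant member per kilobase (chromosome 12, 112653821 to 112674884), was at 412, 303, 481 and 440 normalized CPM in the control-tagged libraries and at 314, 381, 388 and 373 in the TK-/--tagged libraries. The control-tagged libraries held both the highest value, in library 3, and the lowest, in library 2, and enclosed all of the other group. For *Akt1* the log2 fold change was -0.17 (SE 0.14, 95% interval -0.48 to 0.14, edgeR p = 0.260, exact permutation p = 0.371). It was -0.29 without control-tagged library 2 and -0.08 without control-tagged library 3.

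*Akt2*, the isoform known for insulin-stimulated glucose uptake (chromosome 7, 27591552 to 27640826), was at 217, 183, 208 and 202 normalized CPM in the control-tagged libraries and at 226, 217, 240 and 219 in the TK-/--tagged libraries. Only control-tagged library 1 reached the lowest TK-/--tagged library. For *Akt2* the log2 fold change was 0.15 (SE 0.09, 95% interval -0.04 to 0.35, edgeR p = 0.116, FDR = 0.640), and the exact 2-sided permutation test gave p = 0.0571. *Pdpk1*, the kinase that phosphorylates AKT in its activation loop, had a log2 fold change of 0.07 (95% interval -0.16 to 0.29).

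The ratio of *Akt2* to *Akt1* per kilobase averaged 0.291 ± 0.0444 (SD, n = 4) in control-tagged and 0.358 ± 0.0381 (SD, n = 4) in TK-/--tagged hearts. The ratio ran from 0.248 to 0.348 in the first and from 0.327 to 0.413 in the second, so the groups overlapped. *Akt1* stood above *Akt2* in all 8 libraries.

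The GSK3 kinases and FOXO factors, 5 members grouped here as substrates of AKT, were all higher by sign. Of these 5, 0 had a p under 0.05 by edgeR, and their log2 fold changes lay between 0.03 and 0.19. *Tsc2*, also a substrate of AKT, was at -0.00026 and is given with the TSC complex. The signs of *Gsk3b* and *Foxo1* turned when single libraries were left out. *Foxo3*, a FOXO factor linked to atrophy genes (chromosome 10, 42181841 to 42276755), was at 69.5, 66.8, 78.5 and 89.9 normalized CPM in the control-tagged libraries and at 85.9, 103, 82.7 and 74.8 in the TK-/--tagged libraries. TK-/--tagged library 2 was the highest, and the groups overlapped. The log2 fold change of *Foxo3* was 0.19 (SE 0.12, 95% interval -0.08 to 0.46, edgeR p = 0.157, exact permutation p = 0.229), and it was 0.09 without TK-/--tagged library 2 and 0.28 without control-tagged library 4.

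*Foxo4* and *Foxo1* had log2 fold changes of 0.13 (95% interval -0.06 to 0.32) and 0.03 (95% interval -0.21 to 0.26). Per kilobase *Foxo4* made up 55.6% of the RNA of the 3 FOXO genes, *Foxo3* 33.9% and *Foxo1* 10.6%. *Gsk3a*, a kinase that restrains glycogen synthase, had a log2 fold change of 0.06 (95% interval -0.11 to 0.24), and *Gsk3b* stood at 0.120 of the level of *Gsk3a* per kilobase (0.0941 to 0.138 over the libraries). *Gsk3a* shares 820 exon bases with *9130221H12Rik* on the opposite strand.

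*Rheb*, the small GTPase that activates mTORC1 (chromosome 5, 24802823 to 24842624, with an E-box and a GC box in its promoter window), was at 72.5, 73.4, 64.0 and 74.0 normalized CPM in the control-tagged libraries. It was at 81.0, 81.6, 80.6 and 76.8 in the TK-/--tagged libraries. Every TK-/--tagged library lay above every control-tagged one, the only member of the 39 of which this held in either direction (2.56%, against 4.98% of all genes tested, of which 2.46% were higher and 2.53% lower). The gap was narrow, from 74.0 in the highest control-tagged to 76.8 in the lowest TK-/--tagged library.

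The log2 fold change of *Rheb* was 0.17 (SE 0.08, 95% interval -0.01 to 0.35), with an edgeR p of 0.0594 and an FDR of 0.570, so *Rheb* did not pass the test. The exact 2-sided permutation test gave p = 0.0286, the smallest that 4 against 4 libraries allow. Groups that do not overlap always give this p, so it adds nothing to the separation itself. With library sizes taken from total counts in place of TMM, the groups of *Rheb* overlapped, and those of *Mtor*, *Rps6kb2* and *Eif4ebp2* did not, so which member separates depends on the scaling. The share of all genes tested without overlap was not computed for total counts.

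*Tsc1* and *Tsc2*, the complex that switches RHEB off, had log2 fold changes of -0.03 (95% interval -0.25 to 0.19) and -0.00026 (95% interval -0.25 to 0.25). *Tsc2* was the more abundant per kilobase in all 8 libraries, by 5.67 to 7.29 times. *Tsc2* shares 693 exon bases with *Pkd1* on the opposite strand.

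**Figure D3:**
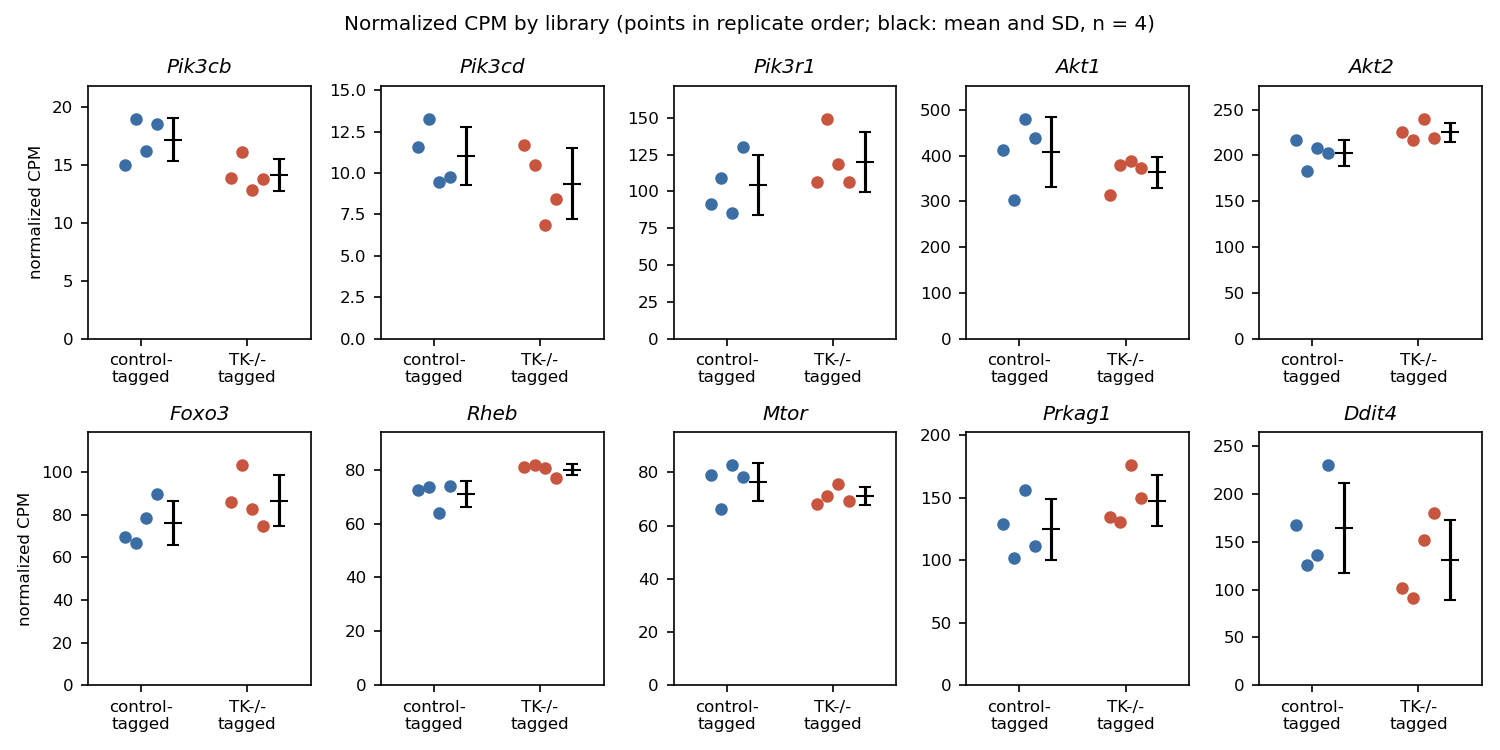
Normalized CPM (axes from 0) of 10 members (*Mtor*, *Akt1*, *Akt2*, the members with the lowest p, without overlap or with the most extreme fold changes), with 1 point per library in replicate order for the control-tagged (blue) and TK-/--tagged (red) groups and the mean and SD beside them (n = 4). *Rheb* is the only one whose points do not overlap between the groups, and *Ddit4* has the widest spread within both relative to its mean.

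*Mtor* (chromosome 4, 148448611 to 148557683), the kinase at the centre of both mTOR complexes, was at 79.0, 66.2, 82.6 and 78.1 normalized CPM in the control-tagged libraries and at 67.9, 71.2, 75.6 and 69.4 in the TK-/--tagged libraries. The control-tagged libraries held the highest and the lowest value and enclosed the other group, with library 2 apart from the other three. This gave a log2 fold change of -0.11 (SE 0.09, 95% interval -0.31 to 0.09, edgeR p = 0.271, exact permutation p = 0.257), and it was -0.17 without control-tagged library 2 and -0.07 without control-tagged library 3.

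All 5 members that encode subunits of the mTOR complexes were lower by sign and 0 had a p under 0.05 by edgeR, with a median log2 fold change of -0.12. Further subunits of these complexes are in the list of other mTOR complex genes below. The mTORC1 scaffold *Rptor* had the largest difference of them, -0.20 (95% interval -0.58 to 0.19). It rested on control-tagged library 3, which was at 84.5 normalized CPM while the other 7 libraries lay between 45.1 and 58.8, and without that library the log2 fold change was 0.03. *Rictor*, the scaffold of mTORC2, had a log2 fold change of -0.13 (95% interval -0.37 to 0.11), and *Deptor*, an inhibitor of both complexes, -0.12 (95% interval -0.43 to 0.19). *Mlst8*, a subunit of both complexes, was at -0.04 and turned in sign when single libraries were left out.

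Per kilobase *Rictor* stood at 0.214 of the level of *Rptor* (0.128 to 0.283 over the libraries), with no separation between the groups. *Mlst8* shares 997 exon bases with *Bricd5* on the opposite strand.

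Among the substrates of mTORC1, the S6 kinase genes *Rps6kb1* and *Rps6kb2* had log2 fold changes of -0.00075 (95% interval -0.19 to 0.19) and 0.11 (95% interval -0.10 to 0.31). The interval of *Rps6kb1* was among the narrowest of the members. *Rps6kb2* was at 1.52 times the level of *Rps6kb1* per kilobase of merged exons, and at 1.09 times (0.922 to 1.23 over the libraries) when the longest transcript set the length, so the order of these neighbours is not settled. *Rps6kb2* shares 1224 exon bases with *Ptprcap*, a leukocyte gene, on the opposite strand.

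The translation inhibitors *Eif4ebp1* and *Eif4ebp2* had log2 fold changes of -0.13 (95% interval -0.52 to 0.26) and -0.07 (95% interval -0.27 to 0.13). *Eif4ebp1* was the more abundant, with *Eif4ebp2* at 0.0905 of its level per kilobase, and it ranged from 71.1 normalized CPM in control-tagged library 2 to 128 in control-tagged library 4. *Eef2k*, the kinase that slows elongation of translation, was at 62.5 normalized CPM in control-tagged library 4 and between 36.4 and 44.5 in the other 7 libraries. Its log2 fold change of -0.15 (95% interval -0.48 to 0.18) became 0.03 without that library.

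AMPK is built of a catalytic alpha, a scaffolding beta and a nucleotide-binding gamma subunit. *Prkag1*, the gamma1 gene (chromosome 15, 98812797 to 98831521), was at 129, 102, 157 and 111 normalized CPM in the control-tagged libraries and at 135, 130, 176 and 150 in the TK-/--tagged libraries. Library 3 was the highest in both groups, and control-tagged library 3 lay above all but 1 of the TK-/--tagged libraries. The log2 fold change, the highest of the 39 members, was 0.25 (SE 0.14, 95% interval -0.07 to 0.56, edgeR p = 0.111, FDR = 0.637, exact permutation p = 0.171). Without TK-/--tagged library 3 it was 0.15, no longer the highest, and without control-tagged library 3 it was 0.37. *Prkag1* shares 950 of its 2175 exon bases with *B130046B21Rik* on the opposite strand, and reads of the pair cannot be told apart if strand was not used.

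The other AMPK genes had log2 fold changes between -0.14 (*Prkab2*, 95% interval -0.33 to 0.05) and 0.16 (*Prkaa2*, 95% interval -0.09 to 0.41). *Prkab2* had an exact 2-sided permutation p of 0.0571. *Prkab1* was at 65.3 normalized CPM in control-tagged library 3 and between 39.6 and 46.8 in the other 7, and its log2 fold change of -0.11 became 0.08 without that library. *Prkaa1* and *Prkag2* were at 0.03 and 0.09.

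The RNA of AMPK was mainly that of alpha2 and gamma1 in every library. Per kilobase *Prkaa2* made up 81.5% ± 2.51 (SD over 8 libraries) of the alpha genes, and stood 3.30 to 5.34 times above *Prkaa1*. *Prkag1* made up 91.4% ± 1.89 of *Prkag1* and *Prkag2* together, and *Prkab1* 53.8% ± 4.72 of the beta genes. *Prkag2* was at 0.0943 of *Prkag1* with merged exons and at 0.139 with the longest transcripts. Both gamma genes overlap genes on the opposite strand, so their shares may hold reads of those genes if strand was not used. The share of the beta genes depends on the length used: *Prkab2* was at 0.869 of *Prkab1* with merged exons and at 0.603 with the longest transcripts. With merged exons *Prkab2* lay above *Prkab1* in control-tagged libraries 2 and 4 and below it in the other 6.

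**Figure D4:**
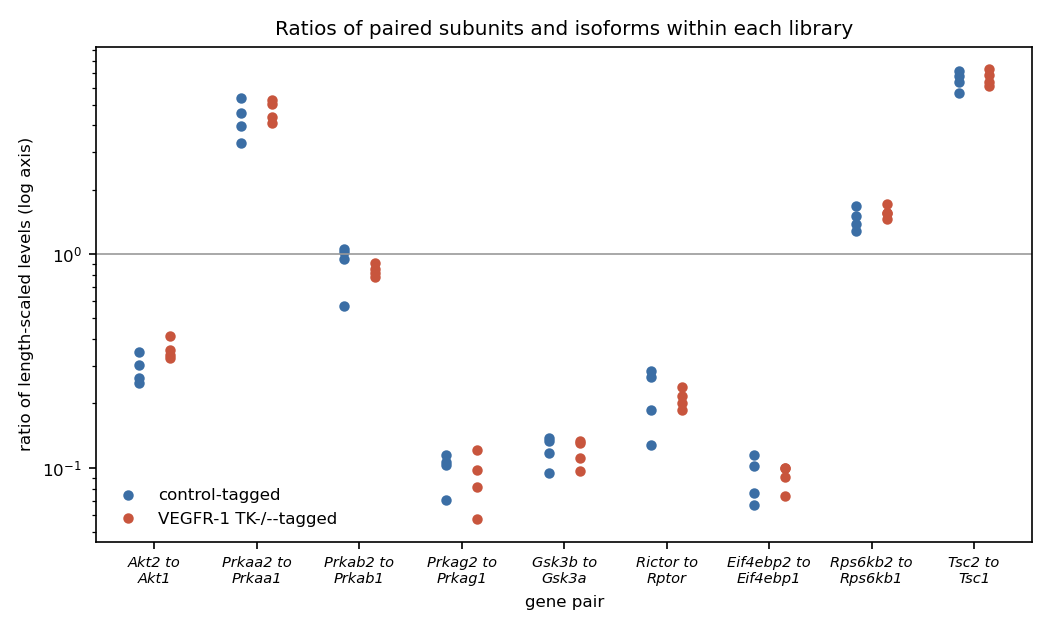
Ratio of the length-scaled levels of 9 pairs of isoforms or subunits in each library (log axis; line at a ratio of 1), control-tagged in blue and TK-/--tagged in red, 4 libraries each. The groups overlap in all 9 ratios, *Prkaa2* to *Prkaa1* and *Tsc2* to *Tsc1* lie above 1 and *Akt2* to *Akt1* below 1 in all 8 libraries.

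Of the inhibitors of mTORC1 that stress induces, *Ddit4*, which is known to respond to glucocorticoids, hypoxia and ATF4 (chromosome 10, 59949669 to 59951834), was at 167, 125, 136 and 230 normalized CPM in the control-tagged libraries. It was at 102, 91.4, 151 and 180 in the TK-/--tagged libraries. Control-tagged library 4 was the highest, TK-/--tagged libraries 1 and 2 were the lowest, and libraries 3 and 4 of that group lay within the control-tagged range. The log2 fold change, the lowest of the 39 members, was -0.33 (SE 0.23, 95% interval -0.83 to 0.18, edgeR p = 0.184, FDR = 0.707, exact permutation p = 0.286). Without control-tagged library 4 it was -0.12, no longer the lowest, and without TK-/--tagged library 4 it was -0.52.

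The summed level of 10 genes known to respond to glucocorticoids was highest in control-tagged library 4 as well, at 1153 normalized CPM, and lay between 783 and 1002 in the other 7 libraries. Of 15 circadian clock genes 4 were higher and 1 was lower at an unadjusted p under 0.05 by edgeR (3.32% and 5.64% of all genes tested), with a median log2 fold change of 0.28 and 0 with an FDR under 0.1. They were *Dbp*, *Per3*, *Nr1d2* and *Tef* and the lower *Npas2*, named after their values were seen. The summed level of the clock genes was 449 to 566 normalized CPM in the control-tagged and 489 to 728 in the TK-/--tagged libraries. The part of both lists in the values of *Ddit4* and the other members was not tested.

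*Sesn1* and *Sesn2* had log2 fold changes of 0.12 (95% interval -0.18 to 0.41) and 0.13 (95% interval -0.39 to 0.64). *Sesn1* made up 95.5% of the RNA of the pair per kilobase, and *Sesn2* had only 52 to 103 counts in a library.

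Seen by library, the members did not move as a block. Control-tagged library 2 was the lowest of the 8 for 16 members, among them *Akt1*, *Akt2*, *Mtor*, *Tsc2*, *Foxo3* and *Prkag1*, and the highest for 3. Control-tagged library 3 was the highest for 8 members, among them *Akt1*, *Tsc2*, *Mtor*, *Rptor* and *Prkab1*, and the lowest for 6, among them *Pik3r1*, *Gsk3b*, *Rheb*, *Prkaa1* and *Prkaa2*. Control-tagged library 4 was the highest for 9 members and TK-/--tagged libraries 2 and 3 for 7 each, whereas TK-/--tagged library 1 was the highest for 0.

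The extremes of most members thus fell in the control-tagged group. Control-tagged library 2 also had the largest TMM factor, 1.12, and the lowest summed level of 10 cardiomyocyte markers, 59387 normalized CPM, where the other 7 libraries lay between 75634 and 99576. Control-tagged library 3 had the smallest TMM factor, 0.917, and the largest total count. The part of these library differences in the members' values was not tested.

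**Figure D5:**
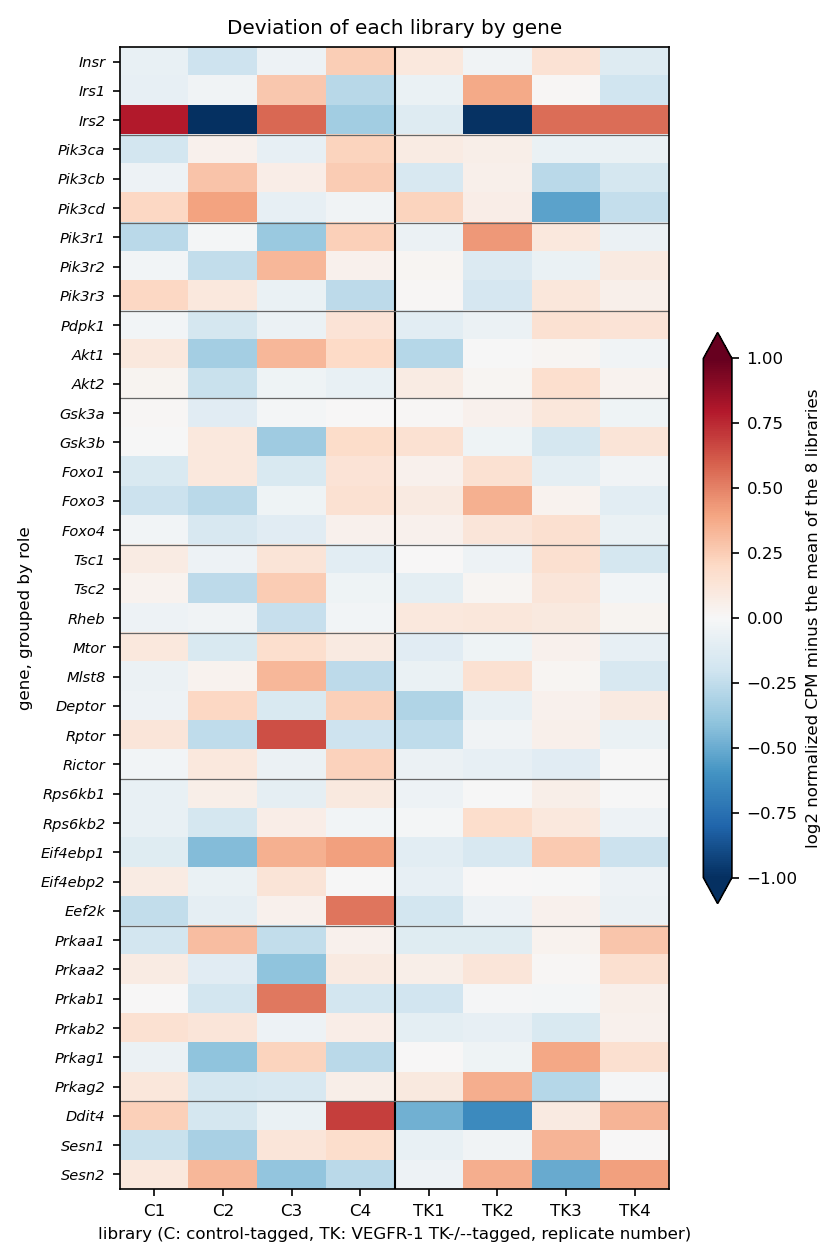
Log2 normalized CPM of each member in each library minus the mean of the 8 libraries (colour, red above and blue below, cut at 1 in either direction), with libraries in columns (C control-tagged, TK for TK-/--tagged) and roles separated by lines. The deepest colours are those of *Irs2* and *Ddit4*, and single control-tagged libraries stand out for *Rptor*, *Prkab1* and *Eef2k*.

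A further 137 genes of the same pathways were read from lists of other PI3K and AKT genes, amino acid sensing, mTORC1 effectors, AMPK substrates, FOXO targets and ATF4 targets. Of the 130 that passed the filter, 0 reached an FDR under 0.1 in the quasi-likelihood test, the likelihood ratio test or DESeq2, and 13 of the 130 had an unadjusted p under 0.05 by edgeR's quasi-likelihood test, 7 higher and 6 lower, where 8.96% of all genes tested did. The likelihood ratio test gave 14, where 9.14% of all genes tested had such a p. Without TK-/--tagged library 2 the quasi-likelihood test gave 7, and the share of all genes tested fell as well, to 5.25%. The median log2 fold change of the 130 genes was 0.0044 over all 8 libraries.

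At an unadjusted p under 0.05, 3.32% of all genes tested were higher and 5.64% lower. Of the 25 other PI3K and AKT genes, 1 was higher and 4 were lower at this p. The lowest p belonged to *Pik3r6*, a regulatory subunit of PI3K gamma, with a log2 fold change of -0.49 (SE 0.15, edgeR p = 0.00804, FDR = 0.464, exact permutation p = 0.0571).

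At an unadjusted p under 0.05, where 3.32% of all genes tested were higher and 5.64% lower, the next lists held few genes. Of the 30 tested genes of the mTOR complexes and amino acid sensing, 1 was higher and 1 lower. Of the 18 mTORC1 effectors 0 were higher and 1 was lower. Of the 24 other AMPK genes and AMPK substrates, 1 was higher. It was *Ppargc1a*, a coactivator of mitochondrial biogenesis that AMPK phosphorylates, at 112, 73.0, 81.7 and 111 normalized CPM in the control-tagged libraries and at 131, 118, 150 and 156 in the TK-/--tagged libraries. This was a log2 fold change of 0.55 (SE 0.15, edgeR p = 0.00330, FDR = 0.442, exact permutation p = 0.0286).

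Of the 21 tested FOXO targets, 3 were higher and 0 lower at an unadjusted p under 0.05 (3.32% and 5.64% of all genes tested), with a median log2 fold change of 0.13 over the list. *Fbxo30*, a ubiquitin ligase, had the lowest p, with a log2 fold change of 0.33 (SE 0.10, edgeR p = 0.00575, FDR = 0.453, exact permutation p = 0.0286). The summed level of the list was highest in TK-/--tagged library 2, at 5128 normalized CPM, where the other 7 libraries lay between 3249 and 3706. *Pdk4*, a brake on glucose oxidation that was named after its values were seen, was at 1577 in that library and between 444 and 699 in the others. The same library was the highest for 7 members: *Irs1*, *Pik3r1*, *Foxo1*, *Foxo3*, *Rheb*, *Rps6kb2* and *Prkag2*. *Foxo4* was highest in TK-/--tagged library 3, at 68.0 against 66.5 in library 2, and *Irs2* was at only 2.75 in library 2. Of the 15 tested ATF4 targets outside the members, 1 was higher and 0 lower.

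Markers of cell types were read beside these values, and 0 of them had an FDR under 0.1. At an unadjusted p under 0.05 by edgeR, 5 of 10 markers of smooth muscle cells and pericytes were lower, as were 3 of 10 endothelial and 2 of 10 leukocyte markers, and 3 of 10 cardiomyocyte markers were higher, where 5.64% of all genes tested were lower and 3.32% higher. The 5 smooth muscle and pericyte markers were *Pdgfrb*, *Rgs5*, *Kcnj8*, *Notch3* and *Cspg4*, named after their values were seen. The pericyte marker *Abcc9* and *Acta2*, *Myh11*, *Tagln* and *Cnn1* of the same list were not among them. The summed level of the smooth muscle and pericyte markers was 1480 to 2084 normalized CPM in the control-tagged and 1055 to 1604 in the TK-/--tagged libraries. That of the cardiomyocyte markers was 59387 to 92102 and 75634 to 99576. The library names speak of cardiomyocytes and the source label of left ventricular tissue, and markers of all these cell types were present. Of 10 fibroblast, 5 tested atrial and 5 red blood cell markers 0 had a p under 0.05, and 3 of 6 adipocyte markers were at 0 in every library and the rest at no more than 20 counts. The part of these markers in the members' values was not tested.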

How the data were processed

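RNA-seq libraries of left ventricles were made from 8 mice. Reads were trimmed by the authors in Trim Galore 0.4.4 (Phred cutoff 30), aligned to GRCm38 with STAR 2.5.4b and counted per GENCODE M16 gene with featureCounts. The authors deposited whole-number counts, not normalized, for 46040 genes. The labels name depletion of ribosomal RNA and the methods poly-A selection. The handling of strand and of reads with several alignments is not given in the sources used here, so antisense genes and paralogs may share reads. Per-sample columns not used numbered 0.

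Genes at a CPM of 1 or more in 2 or more libraries were kept, scaled by TMM and tested in edgeR 4.0.16 (glmQLFit, glmQLFTest; R 4.3.3) on all 8 libraries with no covariates. FDR is the Benjamini-Hochberg value over all genes tested. The authors' own test, the likelihood ratio test of edgeR, served as an alternative, as did DESeq2 1.42.0, RLE factors, total counts, no filter, filterByExpr, robust dispersion, the replicate number as a block, each library left out in turn, stricter and looser thresholds, and the longest transcript as length. Log2 normalized CPM (prior count 2) of single genes also went through a 2-sided permutation test, which is exact with 4 against 4 libraries. Levels per kilobase and positions used the merged exons of GENCODE M21 (GRCm38), which lacks 849 of the identifiers. Promoters came from RefSeq (GRCm38.p6). Figures were drawn in Python 3.11.15. The fits were also run on simulated counts with the same dispersion for every gene. The members differ in dispersion, so that run does not check their single intervals, and no result here rests on it.

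The members and the gene lists were chosen with earlier results of these data known. All 39 members are accounted for. Described library by library are *Mtor*, *Akt1*, *Akt2*, members with an unadjusted p under 0.05 or without overlap between groups, and the 3 highest and 3 lowest log2 fold changes. *Irs2* was added after its values were seen. Of the other pathway lists, genes with p under 0.01 are named. Some tested genes are not reported by name here, and the counts over lists include them. Nothing says more of the replicates than that they are separate mice of 2 genotypes. The edgeR p-values set the difference between the groups against the spread between mice, estimated with information shared over genes. Total counts per library lay between 11449137 and 16239670, and a member with 31 counts carries a far larger counting error than one with 7156.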

Additional observations from a re-analysis of the deposited data

Results flagged for a closer look

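Within groups of 4 libraries, the gap of the highest or lowest library to its nearest neighbour was divided by the range of the group, and 2 of 98 such groups passed the 95% critical value of Dixon's ratio, where chance passes about 1 in 20. *Rheb* in control-tagged replicate 3 was at 64.0 normalized CPM, low against 72.5 to 74.0 in the other control-tagged libraries. *Sesn1* in VEGFR-1 TK-/--tagged replicate 3 was at 193 normalized CPM, high against 144 to 153 in the other libraries of its group.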

How the results depend on the processing

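Over 16 alternatives, 0 of the 624 fold changes of members reached an FDR under 0.1 (lowest 0.440), 570 kept their direction and 54 turned, in 17 members, while 22 members never turned. The count of members with p under 0.05 was 2 with DESeq2 (*Pik3cb*, *Rheb*), 0 with total counts, 3 with the replicate block (*Pik3cb*, *Prkag1*, *Ddit4*) and 0 to 3 with single libraries left out. The 0 came without VEGFR-1 TK-/--tagged library 1 or 3, and the 3 (*Pik3cb*, *Prkab2*, *Prkag1*) without control-tagged library 3, with 2 (*Pik3r1*, *Foxo3*) without control-tagged library 4. Members without overlap numbered 3 with total counts (*Mtor*, *Rps6kb2*, *Eif4ebp2*), 2 with no filter (*Akt2*, *Rheb*) and 1 to 4 with single libraries left out, *Rheb* being among them in each of those. The 4 came without VEGFR-1 TK-/--tagged library 4 (*Gsk3a*, *Rictor*, *Prkab2* beside *Rheb*), and there were 3 without control-tagged library 1, 2 or 3 or VEGFR-1 TK-/--tagged library 2. Groups of 3 against 4 libraries separate more easily by chance than full groups. The share of all genes without overlap was not computed for these settings, so these counts are not read as a result about the members. The other pathway genes with p under 0.05 numbered 7 without VEGFR-1 TK-/--tagged library 2 and 15 without library 4 of that group, 17 with the replicate block and 18 with no filter. The shares of all genes tested were 5.25%, 9.94%, 9.19% and 7.16% in the same order. With the longest transcript as length, the ratio was 0.603 for *Prkab2* to *Prkab1*, 0.139 for *Prkag2* to *Prkag1* and 1.09 for *Rps6kb2* to *Rps6kb1*. Log2 fold changes near 0 turned positive: *Pik3ca* to 0.00106 with the block, *Pik3r3* to 0.00189 with DESeq2, 0.00180 with RLE factors, 0.000924 with no filter and 0.00598 with the block, *Tsc2* to 0.00113, 0.00116, 0.000235 and 0.00880 and *Rps6kb1* to 0.00187, 0.00142, 0.000334 and 0.000839 under the same 4. With single libraries left out, log2 fold changes ran from -0.022 to 0.14 for *Insr*, -0.067 to 0.17 for *Irs1*, -0.30 to 0.24 for *Irs2*, -0.067 to 0.074 for *Pik3ca*, -0.14 to 0.050 for *Pik3r2*, -0.080 to 0.069 for *Pik3r3*, -0.079 to 0.092 for *Gsk3b*, -0.024 to 0.078 for *Foxo1*, -0.093 to 0.024 for *Tsc1*, -0.080 to 0.090 for *Tsc2*, -0.12 to 0.075 for *Mlst8*, -0.31 to 0.029 for *Rptor*, -0.033 to 0.034 for *Rps6kb1*, -0.25 to 0.031 for *Eef2k*, -0.065 to 0.15 for *Prkaa1*, -0.19 to 0.078 for *Prkab1* and -0.023 to 0.19 for *Prkag2*. The replicate numbers were not taken to pair the libraries, since the deviations of same-numbered libraries from their group means correlated at only -0.03, 0.03, 0.34 and -0.06 over genes. The cause of these shifts was not tested.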
